A study of Mus musculus with 6 samples.

Results

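The general mRNA decay machinery was examined in early LPre-B cells, the early large pre-B stage of B cell development in mouse bone marrow. Its members are the 44 genes of a list of deadenylases, decapping factors, LSM proteins, exoribonucleases, exosome subunits and ribosome rescue factors. They were matched by symbol to the Entrez IDs of the table, and all 44 of them had a row among the 13426 genes. The rule that lists them uses no expression value, although the list was drawn up with earlier results of these data known. RNA-seq was performed on cells sorted from *Upf1* Flox/Flox, *Mb1* Cre/+ mice (Upf1-cKO) and from *Upf1* Flox/Flox, *Mb1* +/+ mice (Ctrl), with 3 libraries per group. Both genotypes carried the floxed *Upf1* allele and Ctrl mice lacked Cre, so the groups differed in Cre as well as in the recombined allele. Cre was expressed from the *Mb1* (*Cd79a*) locus, which is active in the B lineage, and the mice were age-matched adults of both sexes, with no treatment given in the labels, on a C57BL/6 background. The study counts its samples as independent biological replicates, and the labels do not say which mouse each library came from.

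An mRNA usually loses its poly(A) tail first, through the PAN2-PAN3 and CCR4-NOT deadenylases. The shortened transcript is then either decapped and degraded from its 5′ end by XRN1, with the LSM ring, PATL1 and DDX6 joining deadenylation to decapping, or degraded from its 3′ end by the exosome. UPF1, the RNA helicase of nonsense-mediated mRNA decay (NMD), passes its targets to these same enzymes, among them CCR4-NOT and the decapping complex. Ribosomes that stall inside a message are split by PELO and HBS1L, and the message is degraded by the same nucleases. CCR4-NOT is also known to be needed for early B cell development. The comparison asks how the transcripts of this shared machinery stood in cells from which UPF1 was to be removed.

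Recovered reads per library totalled between 9732498 and 11006834, and the members took between 44 (*Lsm5*) and 7664 (*Cnot1*) reads each in a library. Values are normalised reads, that is reads plus 0.5 per 1000000 of the effective library size. The targeted gene *Upf1* had 260, 203 and 259 normalised reads in Ctrl libraries 1 to 3 and 308, 283 and 299.7 in the Upf1-cKO libraries, with a log2 fold change of 0.31 (SE 0.089, limma adjusted p 0.00696), which was 0.20 and not called after median centring (adjusted p 0.064) and not called without trend and robust estimation (adjusted p 0.069). The gene-level row did not fall and does not resolve the floxed exons, so directions below are those of the libraries labelled cKO. At the protein level, the study reported by immunoblot that UPF1 was lost from pro-B and early LPre-B cells of Upf1-cKO mice. Of 11 B lineage marker genes, all 11 had a row, with 6 called higher and 1 lower. Their summed level was 2200 to 2445 in Ctrl and 2768 to 2982 in cKO libraries. The list includes *Cd79a*, the locus that carries Cre in Upf1-cKO mice. The summed level of 9 neutrophil lineage genes, all with a row, was 14.2 to 115 in Ctrl and 316 to 445 in cKO libraries, with 5 of the 9 called higher. The sum of 3 plasmacytoid dendritic cell genes was 9.48 to 11.3 in Ctrl and 21.9 to 26.0 in cKO libraries. That of 3 macrophage and monocyte genes was 30.5 to 55.8 and 53.3 to 74.7, of 4 listed, with *Cd14* lacking a row. The only NK cell gene with a row, *Klrb1c*, was at 0.447 to 0.859 and 2.75 to 3.85, and *Ncr1* had no row. None of 6 T cell genes had a row. The B lineage, neutrophil, dendritic cell and NK cell levels did not overlap between the groups, and those of macrophage genes did. Their part in the results below was not tested. In bulk RNA, fewer cells of a type and less RNA per cell cannot be told apart.

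With limma on log2(normalised reads + 1), 9 members were higher and 9 were lower in cKO libraries (p below 0.05 after adjustment across the whole table), and 26 were not called. Among all 13426 genes, 52.7% were called, 27.7% higher and 25.0% lower, beside 18 of 44 members (40.9%). Where a log2 fold change of 0.5 or more in size was also required, 6 members were higher and 7 lower, against 34.7% of all genes in either direction, 20.4% higher and 14.3% lower. The higher members were *Pan3*, *Parn*, *Dcp1b*, *Patl1*, *Xrn1*, *Xrn2*, *Exosc2*, *Dis3* and *Dis3l2*. The lower members were *Cnot1*, *Cnot2*, *Cnot6l*, *Lsm2*, *Lsm4*, *Lsm5*, *Lsm6*, *Exosc3* and *Pelo*. The median log2 fold change of the members was -0.06 against 0.01 for all genes, and the median of its absolute value was 0.19 against 0.36. The fold change of each member is plotted by role.

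**Figure D1:**
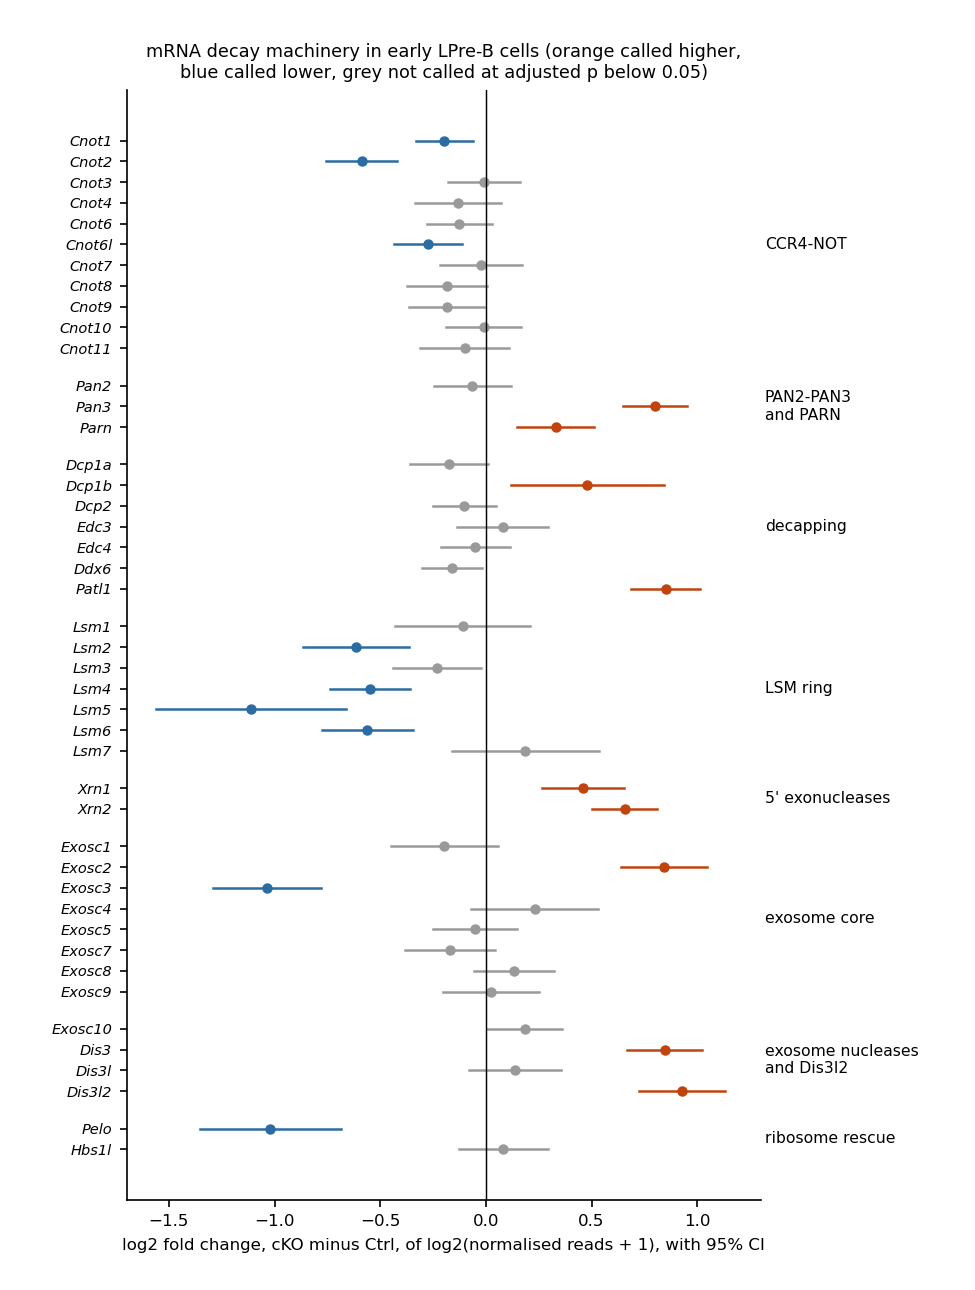
Log2 fold change (cKO minus Ctrl, horizontal axis) of each of the 44 members, grouped by role, with limma's 95% confidence interval. Orange marks the 9 members called higher, blue the 9 called lower and grey the 26 not called. Both 5′ exonucleases lie to the right of 0, and 6 of 7 LSM genes, 4 of them called, to the left, and the 11 CCR4-NOT genes are all at or below 0 under this scaling, although not when libraries are scaled to total reads.

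How libraries are scaled moved the median of all genes. It was 0.01 with the deposited scaling, -0.10 after median centring of each library and 0.19 when reads were divided by total reads. Total reads include the row with the most reads in each library. That row took 22.2%, 23.8% and 16.4% of recovered reads in Ctrl libraries 1 to 3 and 16.5%, 13.8% and 13.9% in cKO libraries 1 to 3. The split of the called members was 9 higher and 9 lower with the deposited scaling, 8 and 19 after median centring and 15 and 7 with total reads. All genes moved the same way: after median centring 54.7% of them were called, 22.3% higher and 32.4% lower, and with total reads 52.9%, 38.5% higher and 14.4% lower. The called share of members against that of all genes thus depended on the scaling, with 61.4% of members after median centring and 22 of 44 with total reads. Under all 3 scalings in the same direction, 8 members were higher and 7 lower, against 36.7% of all genes in either direction, 22.3% higher and 14.4% lower. *Dcp1b*, *Cnot1* and *Cnot6l* were the 3 members lost. The groups did not overlap for 9 higher and 14 lower members, against 58.8% of all genes in either direction, 30.9% higher and 28.0% lower. These were the 18 called members and *Cnot6*, *Cnot9*, *Dcp2*, *Ddx6* and *Lsm3*, which had negative fold changes that did not pass the test.

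**Figure D2:**
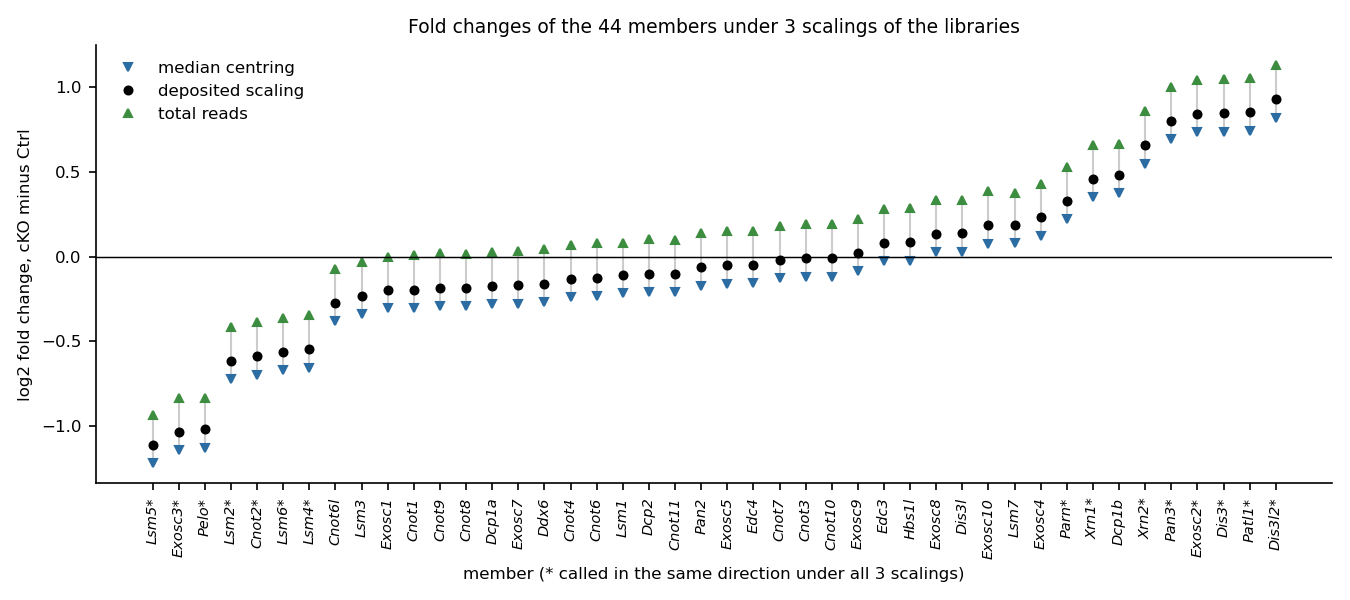
Log2 fold change (cKO minus Ctrl, vertical axis) of the 44 members, ordered by the deposited scaling, under median centring, the deposited scaling and total reads. The 15 members marked with an asterisk, 8 towards the right and 7 at the left end, were called in the same direction under all 3 scalings, while most of those between crossed 0.

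In the CCR4-NOT complex, the main deadenylase of the cell, *Cnot2* fell under each of the 3 scalings, and the sign of most other fold changes depended on the scaling. Of its 11 measured genes, 3 were called lower and 0 higher, beside 25.0% and 27.7% of all genes. The median log2 fold change of the 11 was -0.13. All 11 fold changes were negative under the deposited scaling, between -0.59 and -0.01, but the median was 0.07 with total reads, where 1 gene was called lower, and -0.24 after median centring, where 7 were, beside 32.4% of all genes.

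*Cnot2* (Entrez ID 72068, chromosome 10, 116485160 to 116581900, minus strand, GRCm38) encodes a subunit that binds CNOT3 and the scaffold CNOT1. Its normalised reads were 167.5, 151.7 and 176.5 in Ctrl libraries and 110.3, 111.6 and 106.2 in cKO libraries. All cKO values lay below all Ctrl values, and the log2 fold change was -0.59 (SE 0.08, limma adjusted p 6.1e-06). *Cnot3*, its partner subunit, did not pass the test, with 93.2, 101.0 and 100.7 in Ctrl and 92.2, 102.0 and 98.7 in cKO libraries. *Cnot1*, the scaffold, had 748.9, 739.1 and 751.2 in Ctrl and 653.6, 654.0 and 646.1 in cKO libraries. These groups were far apart for their spread, and the log2 fold change was -0.20 (SE 0.065, limma adjusted p 0.016), but with total reads it was 0.01 and the call was lost.

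The catalytic subunits of the complex come in 2 paralog pairs. *Cnot6l*, a CCR4-type deadenylase, had 232.6, 226.0 and 205.5 normalised reads in Ctrl and 179.3, 178.1 and 190.4 in cKO libraries. It was called lower with a log2 fold change of -0.27 (SE 0.076, limma adjusted p 0.0053), which was not called with total reads (-0.07) or quantile normalization (-0.18, adjusted p 0.055). Its paralog *Cnot6* had 207.7, 212.5 and 197.1 in Ctrl and 189.8, 180.6 and 195.2 in cKO libraries and did not pass the test (-0.13, adjusted p 0.16). The ratio of *Cnot6* to *Cnot6l* within a library does not depend on scaling. It was 0.893, 0.941 and 0.959 in Ctrl and 1.06, 1.01 and 1.03 in cKO libraries, so that *Cnot6l* had more reads than *Cnot6* in each Ctrl library and fewer in each cKO library. The CAF1-type deadenylases *Cnot7* (59.8 to 67.0 in Ctrl, 57.7 to 68.4 in cKO) and *Cnot8* (68.1 to 79.7 and 61.5 to 68.3) overlapped between groups, with log2 fold changes of -0.02 and -0.18 that did not pass the test and that were both positive with total reads. The other 4 genes, *Cnot4*, *Cnot9*, *Cnot10* and *Cnot11*, were not called.

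Of the 2 subunits of the other poly(A) nuclease, PAN2-PAN3, *Pan3* was higher. PAN2 is the nuclease and PAN3 the adaptor that brings it to poly(A)-binding protein. *Pan3* (Entrez ID 72587, chromosome 5, 147426208 to 147548501, plus strand) had 184.6, 169.5 and 186.6 normalised reads in Ctrl and 311.6, 318.8 and 312.0 in cKO libraries. The groups were well separated, with a log2 fold change of 0.80 (SE 0.072, limma adjusted p 3.9e-08), and no other annotated gene overlaps *Pan3*. *Pan2* had 100.9, 88.1 and 85.2 in Ctrl and 88.8, 84.0 and 88.7 in cKO libraries, which overlapped. Its log2 fold change was -0.06 (95% confidence interval -0.24 to 0.12) and 0.14 with total reads. The ratio of *Pan2* to *Pan3* was 0.547, 0.520 and 0.457 in Ctrl and 0.285, 0.264 and 0.284 in cKO libraries. *Parn*, a poly(A) ribonuclease that also trims small RNAs, had 67.7 to 72.2 in Ctrl and 83.0 to 95.3 in cKO libraries, a log2 fold change of 0.33 (SE 0.086, limma adjusted p 0.0034).

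**Figure D3:**
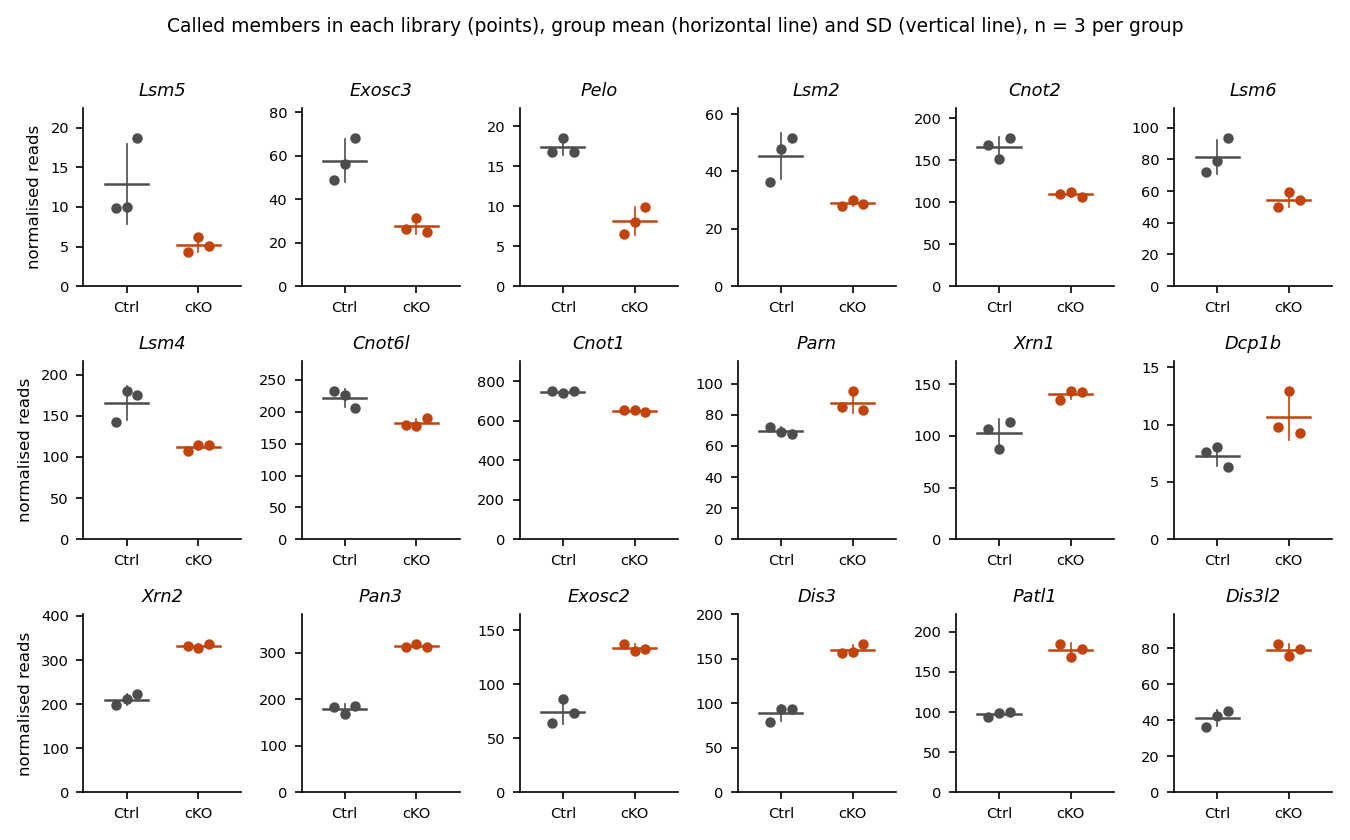
Normalised reads (vertical axes from 0) of the 18 called members in each of 3 Ctrl and 3 cKO libraries, ordered by fold change from *Lsm5* to *Dis3l2*. Points are libraries, horizontal lines group means and vertical lines the SD. In every panel the groups do not overlap, and the single high Ctrl value of *Lsm5* (18.7) is visible.

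Among the decapping factors, *Patl1* was called with a log2 fold change past 0.5. Of the 7 genes, 2 were higher and 0 lower, beside 27.7% and 25.0% of all genes. The median log2 fold change of the 7 was -0.05. After median centring 1 was higher and 3, *Dcp1a*, *Dcp2* and *Ddx6*, were lower, beside 22.3% and 32.4% of all genes. With total reads 3 were higher and 0 lower, beside 38.5% and 14.4% of all genes. *Patl1* (Entrez ID 225929, chromosome 19, 11912399 to 11945096, plus strand) encodes the scaffold that binds the LSM ring, DDX6 and the decapping complex. It had 93.5, 99.3 and 100.3 normalised reads in Ctrl and 184.5, 167.9 and 178.8 in cKO libraries. Each cKO value was well above every Ctrl value, and the log2 fold change was 0.85 (SE 0.077, limma adjusted p 4.0e-08). *Dcp2*, the decapping enzyme, did not pass the test, with 207.3, 212.6 and 209.1 in Ctrl and 196.0, 193.4 and 196.3 in cKO libraries. *Ddx6*, a helicase of the complex and the decapping gene with the most reads, had 494.5 to 514.4 in Ctrl and 442.8 to 464.4 in cKO libraries (-0.16, adjusted p 0.054), and its fold change was 0.04 with total reads. It was called lower after median centring, with voom and DESeq2 on the recovered reads, with a minimum mean log2 value of 3 and without Ctrl replicate 3.

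*Dcp1b*, a cofactor of DCP2 with few reads, had 7.59, 8.03 and 6.31 normalised reads in Ctrl and 9.81, 12.9 and 9.23 in cKO libraries. The groups did not overlap, and it was called higher with a log2 fold change of 0.48 (SE 0.17, limma adjusted p 0.025), but it lost the call without cKO replicate 2 (0.35, adjusted p 0.15), without Ctrl replicate 3 (0.39, adjusted p 0.092), after median centring (0.37, adjusted p 0.078) and with quantile normalization (0.30, adjusted p 0.16). Its paralog *Dcp1a* had 89.7, 93.0 and 82.6 in Ctrl and 85.1, 73.3 and 76.5 in cKO libraries and did not pass the test (-0.17, and 0.03 with total reads). The ratio of *Dcp1a* to *Dcp1b* was 11.8, 11.6 and 13.1 in Ctrl and 8.68, 5.66 and 8.29 in cKO libraries. *Edc3* and *Edc4*, enhancers of decapping, were not called.

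In the LSM ring, 4 of 7 genes were called lower in cKO libraries under each of the 3 scalings, beside 14.4% of all genes. LSM proteins form rings that bind the oligoadenylated or uridine-rich 3′ ends of RNA. The ring that contains LSM1 acts in decapping in the cytoplasm, and the ring that contains LSM8 in its place binds U6 snRNA in the nucleus. Of the 7 member genes, 0 were higher under any of these scalings, with a median log2 fold change of -0.55 against 0.01 for all genes. The 4 lower genes, *Lsm2*, *Lsm4*, *Lsm5* and *Lsm6*, encode subunits shared by both rings. *Lsm3* and *Lsm7* are shared as well and were not called. *Lsm1*, the subunit particular to the cytoplasmic ring, had few reads and was not called either.

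*Lsm4* (Entrez ID 50783, chromosome 8, 70673231 to 70678752, plus strand) had 142.0, 180.2 and 174.7 normalised reads in Ctrl and 107.5, 115.0 and 114.6 in cKO libraries. *Lsm2* (Entrez ID 27756, chromosome 17, 34981854 to 34985891, plus strand) had 36.4, 47.7 and 51.7 in Ctrl and 28.0, 30.0 and 28.7 in cKO libraries. *Lsm6* (Entrez ID 78651, chromosome 8, 78804868 to 78821152, minus strand) had 72.0, 78.8 and 93.5 in Ctrl and 50.2, 59.4 and 54.3 in cKO libraries. In all of these the groups were separate, and Ctrl library 1 was the lowest Ctrl library. Their log2 fold changes were -0.55 (SE 0.09, adjusted p 5.0e-05), -0.62 (SE 0.12, adjusted p 0.00028) and -0.56 (SE 0.10, adjusted p 0.00015) by limma. *Lsm5* (Entrez ID 66373, chromosome 6, 56701063 to 56704699, minus strand) had 9.93, 9.95 and 18.7 in Ctrl and 4.34, 6.18 and 5.10 in cKO libraries, with 44 recovered reads in cKO library 1. Ctrl library 3 stood apart from the other Ctrl libraries, and *Lsm5* was called lower with a log2 fold change of -1.11 (SE 0.21, limma adjusted p 0.00028), which was -0.83 without that library.

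The remaining LSM genes did not pass the test. *Lsm3* had 38.2 to 41.6 normalised reads in Ctrl and 31.6 to 35.3 in cKO libraries (-0.23, limma adjusted p 0.058). It was called lower after median centring, with quantile normalization, with a minimum mean log2 value of 3 and without Ctrl replicate 1, so that 5 of 7 LSM genes were lower after median centring, beside 32.4% of all genes. *Lsm1* had 10.7 to 13.3 and 10.3 to 12.6, and *Lsm7* had 8.98 to 14.2 and 11.6 to 14.3, and both overlapped between groups. *Lsm8*, which is no member and is named here after its values were seen, had 38.6, 42.5 and 51.1 in Ctrl and 27.8, 31.2 and 28.3 in cKO libraries, a log2 fold change of -0.57 (limma adjusted p 0.00032).

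LSM genes are short. Their exon lengths had a median of 2753 bases (792 to 4076), against 5821 bases for the other members. Over the 44 members, the log2 fold change and log2 exon length had Pearson's r of 0.48 and Spearman's rho of 0.30, given as a description across genes that share the same 6 libraries. Over 12907 genes with a known length r was 0.14. Of the 5133 protein-coding genes within the length range of the LSM genes, 1293 were called higher and 1428 lower, with a median log2 fold change of -0.02. GC content had r of -0.01 with the fold change over the members.

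Both exonucleases that degrade RNA from the 5′ end were higher. *Xrn1* (Entrez ID 24127, chromosome 9, 95954750 to 96057806, plus strand) encodes the cytoplasmic enzyme that removes decapped mRNA. It had 106.7, 87.2 and 113.5 normalised reads in Ctrl and 135.1, 143.4 and 142.8 in cKO libraries. *Xrn2* (Entrez ID 24128, chromosome 2, 147012755 to 147078000, plus strand) encodes the nuclear enzyme that acts in transcription termination, and had 197.4, 210.9 and 222.1 in Ctrl and 331.7, 327.0 and 336.1 in cKO libraries. The groups did not overlap for either gene, with log2 fold changes of 0.46 (SE 0.092, limma adjusted p 0.00039) and 0.66 (SE 0.073, limma adjusted p 5.0e-07). The ratio of *Xrn1* to *Xrn2* was 0.414 to 0.540 in Ctrl and 0.407 to 0.439 in cKO libraries, which overlapped.

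In the exosome core, 2 of the cap subunits moved in opposite directions. The core is a catalytically inactive barrel, with a ring of subunits closed by a cap of EXOSC1, EXOSC2 and EXOSC3 through which RNA is threaded. Of the 8 core genes, 1 was higher and 1 lower. These counts were 1 and 3 after median centring, where *Exosc1* and *Exosc7* were also lower, and 3 and 1 with total reads, where *Exosc4* and *Exosc8* were also higher, close to the all-gene shares of 32.4% lower and 38.5% higher. *Exosc2* (Entrez ID 227715, chromosome 2, 31670715 to 31681352, plus strand) had 64.0, 86.6 and 73.8 normalised reads in Ctrl and 137.4, 131.3 and 133.2 in cKO libraries. *Exosc3* (Entrez ID 66362, chromosome 4, 45316613 to 45320616, minus strand) had 49.0, 56.0 and 68.2 in Ctrl and 26.5, 31.2 and 24.8 in cKO libraries. Neither gene's groups overlapped, with log2 fold changes of 0.84 (SE 0.097, limma adjusted p 7.8e-07) and -1.04 (SE 0.12, limma adjusted p 1.0e-06). Both calls held under each of the 16 other settings. *Exosc2* shares 12.4% of its exon length with *Gm13427*, and reads were aligned without use of strand, so its value and what rests on it are uncertain.

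The ratio of *Exosc3* to *Exosc2*, chosen after the values were seen and given with no test, was 0.766, 0.647 and 0.923 in Ctrl and 0.193, 0.238 and 0.187 in cKO libraries. Levels between genes were compared per kilobase of exon. *Exosc3* had a mean of 43.6 normalised reads per kilobase in Ctrl and 20.8 in cKO libraries, and *Exosc2* had 25.9 and 46.4. The order of the 2 genes was thus opposite in the groups, and it was also opposite with the length of the longest transcript (53.6 and 25.6 for *Exosc3*, 36.0 and 64.5 for *Exosc2*). Among the 44 members *Exosc3* went from rank 4 in Ctrl to rank 15 in cKO libraries and *Exosc2* from rank 11 to rank 4.

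**Figure D4:**
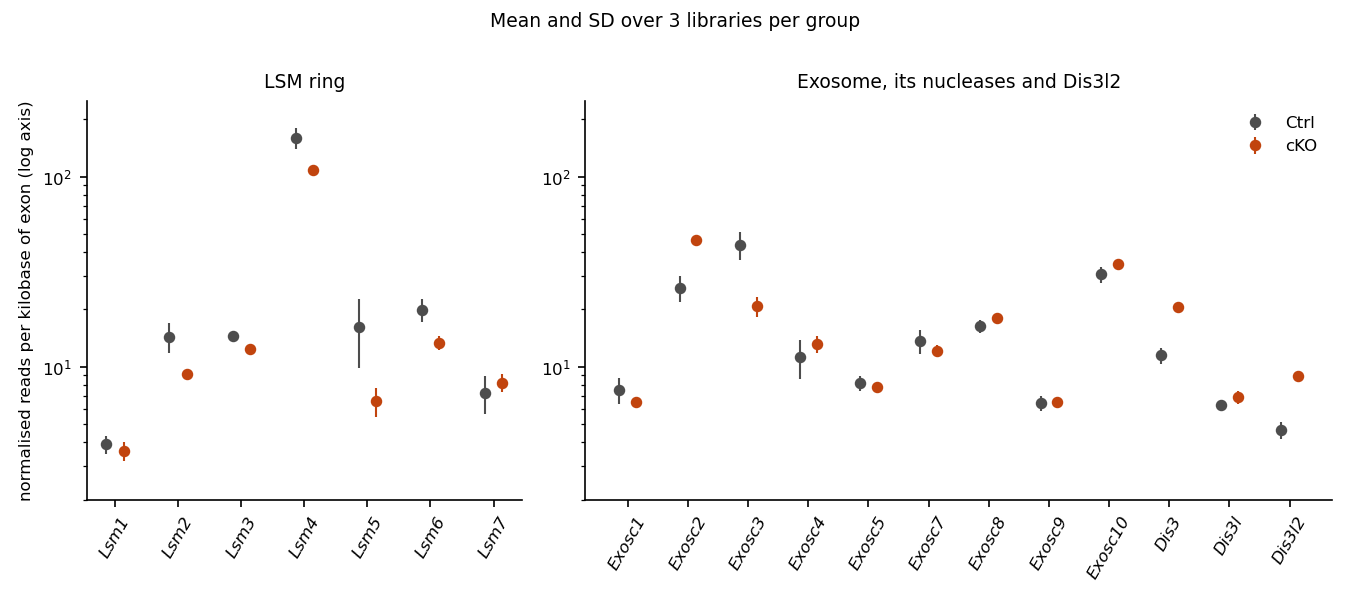
Mean normalised reads per kilobase of exon (log axis) with the SD over 3 libraries, in Ctrl and cKO libraries, for the LSM ring genes (left) and the exosome genes with *Dis3l2* (right). *Exosc3* lies above *Exosc2* in Ctrl and below it in cKO libraries, and *Lsm4*, at 159.6 and 108.3, lies above all others in both groups.

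The third cap gene, *Exosc1*, and the ring genes were not called with the deposited scaling. *Exosc1* had 25.4 to 34.6 normalised reads in Ctrl and 25.5 to 27.4 in cKO libraries, which overlapped. The ring genes *Exosc4*, *Exosc5*, *Exosc7*, *Exosc8* and *Exosc9* had log2 fold changes between -0.17 and 0.23. *Exosc4* shares 19.8% of its exon length with *Oplah* and *Exosc9* shares 10.8% with *Ccna2*, and reads were aligned without use of strand, so their values are uncertain. The ring gene *Exosc6*, which is no member but is on the partner list, shares its whole exon length with *Aars* in the annotation and was called lower (-0.39, limma adjusted p 0.0040), but not with total reads (-0.20, adjusted p 0.13).

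The exosome nucleases and *Dis3l2*, which degrade RNA from the 3′ end, were higher where they were called. Of the 4 genes, 2 were higher and 0 lower, also after median centring, and with total reads all 4 were higher, beside 38.5% of all genes. *Dis3* (Entrez ID 72662, chromosome 14, 99076634 to 99099780, minus strand) encodes the nuclear catalytic subunit of the exosome. It had 78.9, 93.9 and 94.1 normalised reads in Ctrl and 156.2, 157.7 and 166.7 in cKO libraries. The groups were well apart, with a log2 fold change of 0.85 (SE 0.085, limma adjusted p 1.6e-07). The start of *Dis3* overlaps the divergent gene *Pibf1*, which had a log2 fold change of 0.72, and 4.19% of the exon length of *Dis3* is shared with it. *Dis3l*, the cytoplasmic counterpart, had 32.7, 36.8 and 32.9 in Ctrl and 40.1, 38.5 and 34.5 in cKO libraries, which overlapped (0.14, adjusted p 0.28, and 0.34, adjusted p 0.011 with total reads). *Exosc10*, the other nuclear exosome nuclease, had 102.7 to 122.3 in Ctrl and 120.1 to 130.3 in cKO libraries and did not pass the test (0.18, adjusted p 0.077), except with total reads (0.39, adjusted p 0.00095).

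*Dis3l2* (Entrez ID 208718, chromosome 1, 86701924 to 87050097, plus strand) was also higher. It encodes an exonuclease that works apart from the exosome and prefers RNA with a uridine tail. Its normalised reads were 36.4, 42.4 and 45.0 in Ctrl and 82.3, 75.7 and 79.5 in cKO libraries. The lowest cKO value was well above the highest Ctrl value, and the log2 fold change was 0.93 (SE 0.096, limma adjusted p 2.3e-07). The ratio of *Dis3* to *Dis3l2* was 2.09 to 2.22 in Ctrl and 1.90 to 2.10 in cKO libraries, which overlapped. The ratio of *Dis3* to *Dis3l* was 2.42, 2.55 and 2.86 in Ctrl and 3.90, 4.10 and 4.83 in cKO libraries, which did not.

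The pair that rescues stalled ribosomes was unequal. PELO recognises the empty site of a stalled ribosome and HBS1L is the GTPase that delivers it. *Pelo* (Entrez ID 105083, chromosome 13, 115088355 to 115090158, minus strand) had 16.7, 18.5 and 16.8 normalised reads in Ctrl and 6.49, 8.07 and 9.91 in cKO libraries. All cKO values were below all Ctrl values, with a log2 fold change of -1.02 (SE 0.16, limma adjusted p 2.9e-05). The gene lies within the span of *Itga1*, whose level was 0.464 to 1.13, and 67.1% of its exon length is shared with the annotated genes *Gm10734* and *Gm49395*, so that its value is uncertain. *Hbs1l* had 80.9, 103 and 103.5 in Ctrl and 112.5, 93.4 and 98.0 in cKO libraries, which overlapped (0.08, 95% confidence interval -0.13 to 0.30), and with total reads it was called higher (0.29, adjusted p 0.029). The ratio of *Pelo* to *Hbs1l* was 0.163 to 0.207 in Ctrl and 0.0577 to 0.101 in cKO libraries.

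Over the 8 ratios of paired genes, the groups did not overlap for 5. Each ratio was tested two-sided by exact permutation of the libraries between groups (20 assignments, smallest possible p 0.1), and these 5 reached 0.1 (adjusted p 0.16 over the 8 pairs). The differences of the log2 ratio, cKO minus Ctrl, were -1.20 for *Pelo* to *Hbs1l*, -0.87 for *Pan2* to *Pan3*, -0.71 for *Dcp1a* to *Dcp1b*, 0.71 for *Dis3* to *Dis3l* and 0.15 for *Cnot6* to *Cnot6l*. The others were 0.17 for *Cnot7* to *Cnot8* (exact p 0.2), -0.09 for *Dis3* to *Dis3l2* (exact p 0.2) and -0.20 for *Xrn1* to *Xrn2* (exact p 0.3). Only in the pair of *Pan2* and *Pan3* do both genes overlap no other annotated gene.

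**Figure D5:**
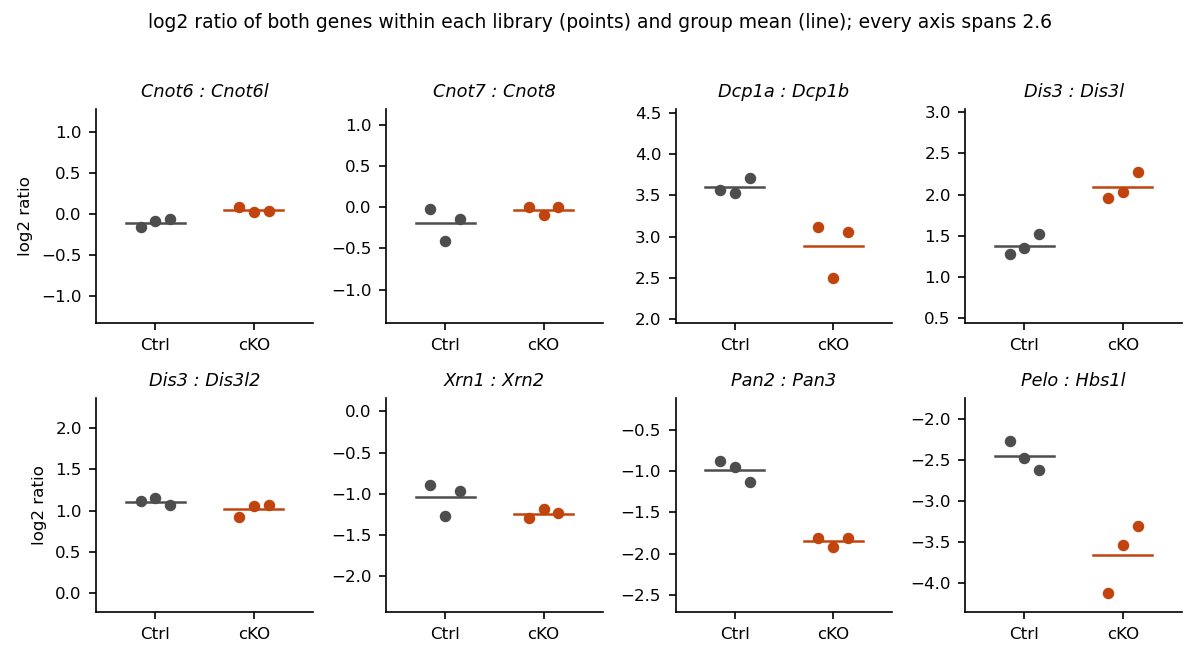
Log2 ratio of the normalised reads of both genes within each library (vertical axes, each spanning the same length), for 8 pairs in 3 Ctrl and 3 cKO libraries. Points are libraries and lines group means. The groups do not overlap for 5 pairs, and the difference was largest for *Pelo* to *Hbs1l* (-1.20).

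The members varied little within groups. Their median coefficient of variation was 9.03% in Ctrl and 4.16% in cKO libraries, against 12.3% and 8.93% for all genes. Per kilobase of exon, *Lsm4* had the highest level in both groups and *Dcp1b* the lowest (1.15 and 1.68). In the GENCODE annotation 21 members have at least 1 transcript marked as an NMD target. Of these 6 were higher and 4 lower, with a median log2 fold change of 0.02, and of the 23 without such a transcript 3 were higher and 5 lower, with a median of -0.13. Over all protein-coding genes, 1306 of the 3510 with such a transcript were higher and 686 lower, with a median of 0.12. Of the 8479 without, 2203 were higher and 2404 lower, with a median of -0.02. The table gives 1 value per gene, so the share of each transcript was not measured. Of the 14 members that overlap no other annotated gene, 2 were higher and 4 lower, beside 27.7% and 25.0% of all genes.

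The bases before the start sites were searched for 7 motifs, with letters read on both strands. The windows were 250 bases before the RefSeq starts (GRCm38.p6), 46 windows of 36 members against 12877 windows of all genes. At least 1 motif was found in 28.3% of the members' windows and in 29.0% of all windows. The ETS letters CCGGAAG were in 17.4% against 13.4%, the E2F letters (TTTCCCGC, TTTGGCGC or TTTCGCGC) in 4.35% against 2.93%, and the E-box letters CACGTG in 4.35% against 8.29%. The CRE letters TGACGTCA were in 2.17% against 2.53%, the YY1 letters AAGATGGC in 2.17% against 1.99%, and the NRF1 and ISRE (interferon-stimulated response element) consensus letters in 0 of the members' windows against 1.66% and 2.67%. None of these motifs contains another. Of the members called with a log2 fold change past 0.5, 3 are shown because they moved in different directions, with windows that end at the gene's start and touch no annotated exon, 5′ to 3′ in the direction of the gene, motif letters in capitals. They are *Patl1* (chr19:11912149-11912398, plus strand, higher, with E2F letters), *Exosc2* (chr2:31670465-31670714, plus strand, higher, no match) and *Lsm6* (chr8:78821153-78821402, minus strand, lower, no match).
Patl1: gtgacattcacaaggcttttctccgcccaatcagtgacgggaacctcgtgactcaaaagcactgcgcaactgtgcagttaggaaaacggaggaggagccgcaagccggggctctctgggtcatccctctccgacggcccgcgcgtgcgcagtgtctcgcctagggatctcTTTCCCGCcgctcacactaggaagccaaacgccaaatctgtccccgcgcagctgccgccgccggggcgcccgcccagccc
Exosc2: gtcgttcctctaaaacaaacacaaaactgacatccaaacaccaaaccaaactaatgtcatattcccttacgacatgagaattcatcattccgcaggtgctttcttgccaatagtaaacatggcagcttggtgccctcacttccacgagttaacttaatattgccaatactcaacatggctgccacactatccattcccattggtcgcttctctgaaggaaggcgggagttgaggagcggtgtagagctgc
Lsm6: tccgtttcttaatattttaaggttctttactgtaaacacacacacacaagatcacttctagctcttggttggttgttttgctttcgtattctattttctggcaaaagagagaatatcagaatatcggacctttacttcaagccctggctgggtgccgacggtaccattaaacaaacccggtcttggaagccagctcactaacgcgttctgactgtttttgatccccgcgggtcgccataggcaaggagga

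Other genes of these pathways were taken from a list of 71, of which 70 had a row. Of these 15 were higher and 23 lower, with a median log2 fold change of -0.12, and the called share of 54.3% was close to the 52.7% of all genes. With a log2 fold change of 0.5 or more in size, 7 were higher and 11 lower (25.7% against 34.7% of all genes), and 13 and 13 were called in the same direction under all 3 scalings (37.1% against 36.7%). The 6 largest falls come first. *Pabpc1*, the cytoplasmic poly(A)-binding protein, had 2005, 2340 and 2177 normalised reads in Ctrl and 1147, 1156 and 1166 in cKO libraries (-0.91, limma adjusted p 4.3e-09). *Pabpn1*, its nuclear counterpart, shares 21.4% of its exon length with *Gm20521* (-0.88, limma adjusted p 3.7e-07). *Btg1*, an antiproliferative protein that binds the CAF1 deadenylases, had 152.3, 118.4 and 146.5 in Ctrl and 71.3, 68.8 and 75.4 in cKO libraries (-0.94, limma adjusted p 1.6e-07). *Zfp36* (-0.86) and *Zfp36l1* (-0.70), which bind AU-rich elements, and *Noct* (-0.72), a CCR4-like protein, were also lower, and 55.9% of the exon length of *Zfp36l1* is shared with *Gm26669*. The groups did not overlap for any of these 6 genes.

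The 6 largest rises of the list follow. *Nemf*, which marks the nascent chain on a split ribosome, had 100.7, 97.8 and 133.3 normalised reads in Ctrl and 191.6, 219.0 and 196.2 in cKO libraries (0.88, limma adjusted p 1.9e-06). *Ascc2* (0.84, adjusted p 1.5e-07) and *Ascc3* (0.57, adjusted p 9.1e-06), subunits of the complex that disassembles collided ribosomes, were higher by limma. *Zcchc7*, a subunit of the nuclear TRAMP complex that feeds the exosome, had 60.1 to 73.6 in Ctrl and 112.3 to 117.2 in cKO libraries (0.78, limma adjusted p 6.8e-07). *Angel1* (0.79, adjusted p 0.0020) and *Nudt16* (0.59, adjusted p 0.0026), a decapping enzyme, were higher from below 11 normalised reads in each Ctrl library, by limma. All of these kept their direction with total reads and after median centring.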

How the data were processed

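RNA-seq of sorted early LPre-B cells from 3 Ctrl and 3 Upf1-cKO samples was analysed. Per the study's methods and the submitters' processing notes, ribosomal RNA was depleted and single-end reads were trimmed (cutadapt 4.0), aligned to mm10 without use of strand (HISAT2), counted per gene (featureCounts 2.0.1) and analysed with limma 3.48.0. The authors deposited 1 linear signal per gene and library, and the values themselves showed its unit. Each value was reads plus 0.5, per 1000000 of the library total times edgeR's TMM factor, and is called normalised reads. Whole reads were recovered for 100% of values in each library, within a tolerance of 0.05. Reads were not tagged with molecular identifiers, so counting error is a lower limit of the true error. Chi-square per degree of freedom between libraries of 1 group was 4.39 to 22.0, more than counting noise alone, so no library was counted as a repeat of another, although libraries made from 1 mouse cannot be told apart this way.

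limma 3.58.1 (R 4.3.3) was fitted to log2(normalised reads + 1) of all 13426 genes, with group as the only term, an intensity trend and robust estimation, and Benjamini-Hochberg adjustment. This scale understates changes of low genes. Called means an adjusted p below 0.05. Alternatives are given in the closing section. Symbols and coordinates came from RefSeq GRCm38.p6 and GENCODE M21 annotation. The named genes were *Upf1*, members called with a log2 fold change of 0.5 or more in size, genes of the 8 pairs, and at most 6 rises and 6 falls of the partner list. The result of 1 marker list is not reported here. The members, lists, motifs and tests were chosen with earlier results of these data known.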

Additional observations from a re-analysis of the deposited data

How the results depend on the processing

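With total reads in place of the deposited scaling, 15 members were higher, 3 were lower where a size of 0.5 on the log2 scale was also required, 1936 and 1084 of all genes were lower without and with that minimum, and the partner list had 27 higher and 13 lower, or 14 and 5 with it. After median centring 19 members were lower, and with the minimum the partner list had 4 higher and 18 lower. Among members that overlap no other gene, 2 were higher and 4 lower with and without the minimum. Of all genes, 20.4% were higher and 14.3% lower with it, and 27.7% and 25.0% without it. A mean log2 value of at least 3 left 1620 genes higher with the minimum, since fewer genes were tested. Leaving out 1 library gave 7 to 11 higher partner genes with the minimum (11 without Ctrl replicate 3), and 8 to 11 higher and 8 to 13 lower members. With total reads the log2 fold changes of *Cnot6* (0.077), *Cnot7* (0.18), *Cnot8* (0.017), *Pan2* (0.14), *Dcp1a* (0.027) and *Cnot1* (0.0072) turned positive, as did *Cnot1* (0.0094) with quantile normalization, and that of *Hbs1l* was -0.025 after median centring. Without 1 library the values ranged from -0.077 to 0.043 for *Cnot7*, -0.11 to 0.0085 for *Pan2* and -0.033 to 0.14 for *Hbs1l*. *Cnot1* also lost its call without intensity trend and robust estimation together (adjusted p 0.080) and without each cKO library (adjusted p 0.059 to 0.078). The causes were not tested. The 15 members called under all 3 scalings were called under each of the 16 settings. Same-numbered Ctrl and cKO libraries had correlations of deviations of 0.08, -0.03 and -0.02, and were not taken as pairs. Names in the labels number them consecutively within a replicate, and the labels do not say whether they were handled together. With a replicate block 9 members were higher and 9 lower, and no member's call changed. Without *Pelo*, chosen after seeing the data, 9 were higher and 8 lower. *Lsm5* (44 reads in its shallowest library) and *Dcp1b* are limited by depth.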
